A study of Mus musculus with 6 samples.

Results

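The transcripts of AMP-activated protein kinase (AMPK) and of the kinase complex that switches it on were followed in CD4 T cells of mice labelled WT or AMPK KO. The set held 10 genes, taken by symbol, out of 23282 listed. They were the catalytic subunits Prkaa1 and Prkaa2, the β subunits Prkab1 and Prkab2, the γ subunits Prkag1, Prkag2 and Prkag3, and the LKB1 complex, which consists of the kinase Stk11 (LKB1), the pseudokinase Strada and the scaffold Cab39 (MO25). WT mice were Prkaa1 fl/fl without CD4Cre, and AMPK KO mice were Prkaa1 fl/fl with CD4Cre, so that both groups carried the floxed allele and differed in the transgene. The recombinase was driven from Cd4, so other cells in a preparation keep the floxed gene unless they or their precursors expressed it. Mice were C57BL/6, and the study's methods give females aged 6 to 8 weeks unless stated otherwise. CD4 T cells were taken from spleen and lymph nodes, left to rest for 1 h and stimulated with anti-CD3 and anti-CD28, for 24 h by the sample labels and for 6 h by the study's methods. Each group had 3 samples. The study calls the samples of a group biologically independent, but does not tie each to a mouse, and the p values measure the spread between these samples only.

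AMPK is a heterotrimer of a catalytic α, a scaffolding β and a nucleotide-binding γ subunit, each encoded by more than one gene. When AMP or ADP binds the γ subunit, the α subunit becomes a better substrate for LKB1, which phosphorylates a threonine in the activation loop of the kinase domain. LKB1 itself is active only when bound to a STRAD pseudokinase and an MO25 scaffold protein. In T cells, antigen receptor signals also reach AMPK through calcium and CaMKK2, and the α1 subunit encoded by Prkaa1 is the main catalytic form in lymphocytes.

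The activation loop is shown for both catalytic genes because Prkaa1 is the deleted gene and Prkaa2 is the only other gene for this subunit. The stretches are coding bases of the GENCODE M21 transcripts on mm10, the build that the submitters' processing notes name, and capitals mark the bases at which the 2 genes differ.
Prkaa1, chr15:5169946-5169993, plus strand: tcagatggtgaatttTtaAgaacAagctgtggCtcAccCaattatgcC
Prkaa2, chr4:105049357-105049404, minus strand: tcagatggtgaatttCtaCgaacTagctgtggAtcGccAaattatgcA
Each stretch is 48 bases long and lies in exon 5, and the threonine that LKB1 phosphorylates is codon 183 in this Prkaa1 transcript and codon 172 in Prkaa2. The sequences share 41 of the 48 bases. Over the whole transcripts the longest exact run common to Prkaa1 and Prkaa2 was 35 bases. It was 23 bases between Prkab1 and Prkab2, 17 between Cab39 and its paralogue Cab39l, and 15 between Prkag1 and Prkag2. Reads longer than these runs differ between the genes. The read length is not given in the sources used here.

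The labels name a Lexogen Quant-Seq kit, a name used for kits that sequence transcript 3′ ends, but its catalogue number was not matched to a kit here, and where on a transcript the reads lie was not tested. The authors deposited log2 of the normalized read number plus 1. The steps of these values gave back the whole reads. Reads on genes numbered 9574889 to 10168168 in WT and 10515124 to 11185184 in AMPK KO, and the ribosomal precursor Rn45s took 22.4% ± 2.21 of them in WT and 9.89% ± 1.24 in AMPK KO (SD, n = 3). The CD4 T cell label was checked with 10 T cell markers, all of which were detected. CD8 T cell markers were as high as Cd4. The mean log2 value of Cd4 was 6.69 in WT and 6.33 in AMPK KO, that of Cd8a was 6.68 and 7.02, and that of Cd8b1 was 7.45 and 7.83, while Gzmk was at 0 in all libraries. The study isolated CD4 T cells with magnetic beads or a cell sorter, a step meant to remove CD8 T cells, and the source of these reads was not tested. The AMPK KO values of Cd8a were all above those of WT, although neither Cd8a nor Cd8b1 passed the adjusted threshold in limma. None of the 10 T cell markers had a higher mean in AMPK KO, and 4 of them (Cd3e, Cd3g, Cd28 and Bcl11b) were lower with a limma adjusted p under 0.05. Their summed normalized reads were 2508 to 2774 in WT and 1895 to 2250 in AMPK KO. The 9 markers of macrophages and monocytes all had higher means in AMPK KO, 6 of them past the threshold, and their sum was 340 to 377 in WT and 625 to 1206 in AMPK KO. The sum of 5 plasma cell markers was 82.8 to 85.2 in WT and 365 to 446 in AMPK KO. Most of it was Jchain, with a mean of 59.0 normalized reads in WT and 363 in AMPK KO. All 4 tested plasma cell markers had the higher mean in AMPK KO, and only Jchain (1 of 4) was past the threshold. Neutrophil markers had the lower mean in AMPK KO in 6 of 7 tested, with Ngp and Ltf lower past the threshold, and their sum was 787 to 902 in WT and 513 to 756 in AMPK KO. All 3 tested platelet markers had the higher mean in AMPK KO, with Pf4 past the threshold, and all 4 tested NK cell markers did, with none past it. Erythroid markers summed to 3474 to 4079 in WT and 2472 to 4941 in AMPK KO, above the T cell sums, and B cell markers to 231 to 252 and 211 to 270. None of the macrophage markers was at 0 in any library, whereas the plasma cell markers Derl3 and Tnfrsf17 each had 0 reads in 1 WT library. Xist had 8 to 32 reads per library in WT and 1998 to 2876 in AMPK KO, and the Y-linked Ddx3y had 3158 to 3462 and 1296 to 1840. Female cells carry no Y chromosome, so the Ddx3y reads in every library and the few Xist reads in WT go against the stated sex. These differences run along with the genotype, their part in the values below was not tested, and a smaller number of T cells cannot be told apart from less RNA per cell.

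Of the 10 genes, 8 passed the filter of a mean log2 value of at least 1, and 0 of the 8 differed between AMPK KO and WT with an adjusted p under 0.05 in limma. Over all 11279 tested genes, 5.65% passed that threshold. None of the 8 had an unadjusted p under 0.05, against 21.3% of all tested genes, and in none did the values of the groups stay apart, against 25.6% of all tested genes. AMPK KO had the higher mean in 6 of the 8, and in 5777 of all 11279 tested genes. With values scaled to the reads outside Rn45s the 6 became 4, since Prkag2 and Cab39 turned negative. The median log2 difference, AMPK KO minus WT, was 0.07 over these genes and 0.02 over all tested genes, and the median of its absolute size was 0.17 against 0.31. No alternative processing brought any of the 8 past the threshold, and the lowest adjusted p over all of them was 0.141. Counts of calls over all genes moved with single libraries, as described in the closing section.

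**Figure D1:**
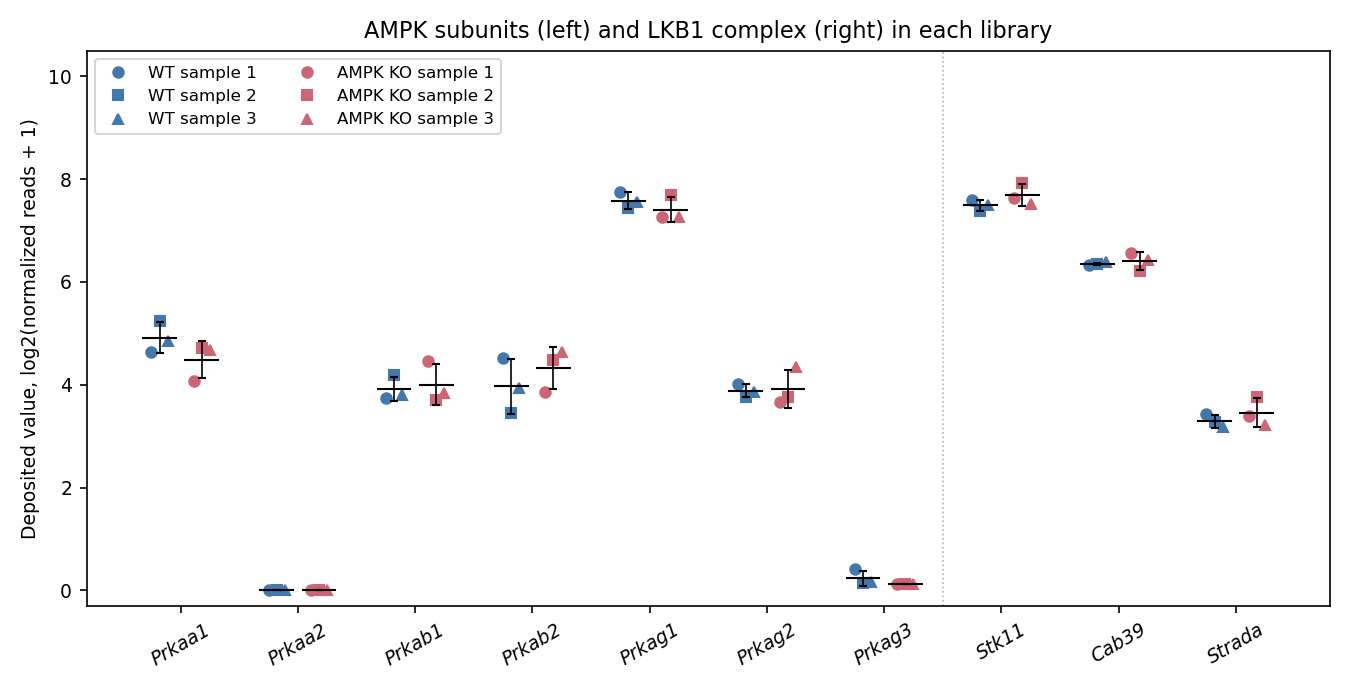
Deposited value, as log2 of normalized reads plus 1, of each of the 10 genes in each library (blue, WT; red, AMPK KO; marker shape, sample number), with the mean as a line and the SD as a bar (n = 3). WT and AMPK KO overlap for every gene with more than 3 reads in a library, and Prkaa2 lies at 0 in all 6 libraries.

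Prkaa1 encodes the α1 catalytic subunit and is the gene that was targeted. Its log2 values were 4.64, 5.24 and 4.86 in WT samples 1, 2 and 3 and 4.08, 4.72 and 4.67 in AMPK KO samples 1, 2 and 3. AMPK KO sample 1 was the lowest of all and WT sample 2 the highest, while AMPK KO samples 2 and 3 lay above WT sample 1. The reads behind these values were 221, 369 and 248 in WT and 188, 273 and 291 in AMPK KO. Read counting alone gives an SD of 0.11 on the log2 scale at the fewest reads, whereas the SD within groups was 0.33. The log2 difference was −0.43 (standard error 0.25, 95% interval −0.97 to 0.11), or 0.745-fold with an interval of 0.512 to 1.083 (limma adjusted p = 0.357). By exact permutation of the samples, two-sided, p was 0.3, and 3 samples against 3 cannot go below 0.1.

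This difference leaned on 1 library of each group. Without AMPK KO sample 1 it was −0.22, and without WT sample 2 it was −0.26. Removing any other library gave −0.45 to −0.56.

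The Prkaa1 gene lies at chr15:5143861-5181899 on the plus strand (GENCODE M21). Its 9th and last exon, chr15:5178688-5181899, is 3212 bases long, and reads from a 3′ kit would lie there. Which exon is floxed and where the reads lie are not given in the sources used here. A transcript that lacks 1 exon but keeps others could still be counted, so these reads do not check the deletion or the labels. An antisense gene, Gm15938, overlaps the last 500 bases of Prkaa1, and whether reads were counted by strand is not given in the sources used here. It was not analysed here. The flanking genes on either side were Rpl37 and Snord72 upstream and Ttc33 and Ptger4 downstream. None of these neighbours was past the threshold, and their log2 differences lay between 0.09 and 0.18. Ttc33, the nearest gene downstream, had 4.08, 4.70 and 4.45 in WT and 4.56, 4.49 and 4.72 in AMPK KO (log2 difference 0.18, standard error 0.24, limma adjusted p = 0.720).

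Prkaa2 encodes the α2 catalytic subunit, which is best known from muscle and liver. It had 0 reads in each of the 6 libraries. A count of 0 allows up to 3 reads, which is 0.813% to 1.60% of the reads counted for the catalytic genes in a library, all of them from Prkaa1. On the scale of normalized reads that limit is 0.252 to 0.339, whereas Prkaa1 ran from 15.9 to 36.9. No rise of Prkaa2 was detected in AMPK KO, and a level below these limits would be missed at this depth. These limits cover counting error only, since reads without molecular identifiers are not independent molecules.

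Prkab1 encodes β1, the scaffold on which α and γ subunits assemble. Its log2 values were 3.75, 4.19 and 3.81 in WT and 4.46, 3.71 and 3.84 in AMPK KO, from 115 to 248 reads. AMPK KO held both the highest and the lowest sample. AMPK KO differed from WT by 0.09 on the log2 scale (standard error 0.29, 95% interval −0.53 to 0.70, limma adjusted p = 0.900). Without AMPK KO sample 1 it turned to −0.14.

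Prkab2 encodes β2, the other scaffold. It had log2 values of 4.53, 3.45 and 3.94 in WT and 3.86, 4.48 and 4.64 in AMPK KO, from 99 to 285 reads. WT sample 2 was the lowest of the 6 and AMPK KO sample 3 the highest, but WT sample 1 lay above AMPK KO samples 1 and 2. Its range of 1.20 over the 6 samples was the widest of the 10 genes, and the SD within groups of 0.48 compares with 0.15 from counting at the fewest reads. The log2 difference was 0.36 (standard error 0.32, 95% interval −0.32 to 1.03, limma adjusted p = 0.557), the highest of the 8 tested genes. It came to 0.09 without WT sample 2 and to 0.63 without WT sample 1.

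The β genes differed in share from sample to sample, and the groups overlapped. Prkab1 made up 36.2%, 63.5% and 47.5% of the normalized reads of both β genes in WT and 60.8%, 36.2% and 35.7% in AMPK KO. WT sample 2 and AMPK KO sample 1 were the ones in which Prkab1 was the larger share. The exact binomial 95% interval was 57.4% to 69.2% in WT sample 2 and 31.2% to 40.3% in AMPK KO sample 3. These libraries had the highest and the lowest share of the 6, and the intervals cover counting error only. The means were 49.0% ± 13.7 in WT and 44.2% ± 14.4 in AMPK KO (SD, n = 3, exact permutation p = 0.6, adjusted p = 0.9 over the 4 shares tested). Per base of exon, the Prkab1 share was 60.9% ± 12.9 in WT and 56.2% ± 13.7 in AMPK KO (SD, n = 3).

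**Figure D2:**
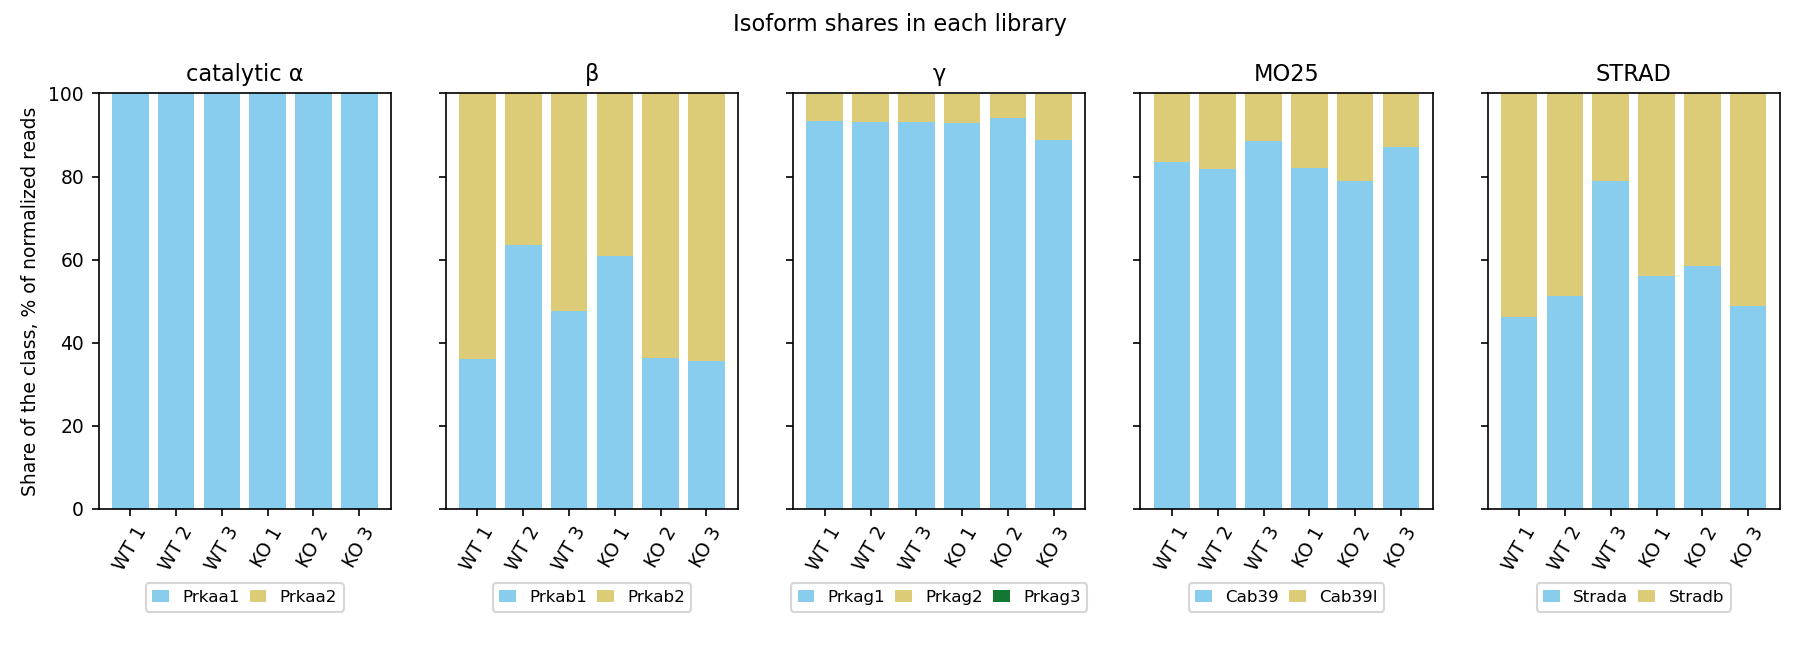
Share of each isoform in the normalized reads of its class (vertical axis, %), as stacked bars for each WT and AMPK KO (KO) library. Prkaa1 makes up the whole α class, Prkag1 makes up 88.8% to 94.2% of the γ class, and the Prkab1 share moves between 35.7% and 63.5% with WT and AMPK KO overlapping.

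Prkag1 encodes γ1, which binds AMP, ADP and ATP and is the most widely expressed γ subunit. Its log2 values were 7.76, 7.43 and 7.55 in WT and 7.27, 7.69 and 7.27 in AMPK KO, from 1648 to 2205 reads. AMPK KO samples 1 and 3 were below all WT samples, and AMPK KO sample 2 was above WT samples 2 and 3. On the log2 scale AMPK KO was at −0.17 relative to WT (standard error 0.16, 95% interval −0.51 to 0.17, limma adjusted p = 0.583).

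Prkag2 encodes γ2, a longer form known for mutations that cause heart muscle disease. It had log2 values of 4.02, 3.77 and 3.87 in WT and 3.66, 3.76 and 4.34 in AMPK KO, from 120 to 229 reads. AMPK KO sample 3 was the highest and the other AMPK KO samples were the lowest. Between the groups the log2 difference was 0.04 (standard error 0.28, 95% interval −0.56 to 0.64, limma adjusted p = 0.959), and it was −0.17 without AMPK KO sample 3. With values scaled to the reads outside Rn45s it was −0.03, and with quantile normalization it was −0.02.

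Prkag3 encodes γ3, a form of skeletal muscle. It had 3 reads in WT sample 1 and 1 read in each other library. All 6 values were at or under the floor of 3 reads, so no fold change is given. The γ class was made up of Prkag1 for 93.2% ± 0.09 in WT and 92.0% ± 2.80 in AMPK KO (SD, n = 3). Prkag2 held 6.58%, 6.84% and 6.79% in WT and 7.07%, 5.76% and 11.1% in AMPK KO. The spread in AMPK KO came from sample 3, whose 95% interval of 9.80% to 12.6% lay above that of every other library. The Prkag2 share was 6.74% ± 0.13 in WT and 7.98% ± 2.79 in AMPK KO (SD, n = 3, exact permutation p = 0.7, adjusted p = 0.9).

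Stk11 encodes LKB1, the kinase that phosphorylates the AMPK activation loop. Its log2 values were 7.60, 7.39 and 7.49 in WT and 7.63, 7.92 and 7.51 in AMPK KO, from 1584 to 2596 reads. AMPK KO samples 1 and 2 were above all WT samples, and AMPK KO sample 3 was above WT samples 2 and 3 and below WT sample 1. The log2 difference was 0.19 (standard error 0.15, 95% interval −0.13 to 0.51, limma adjusted p = 0.491). The interval runs from 0.916-fold to 1.43-fold and had the smallest standard error of the 8 tested genes.

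Cab39 encodes MO25α, the scaffold that holds LKB1 and STRAD in the active form. Its log2 values were 6.34, 6.35 and 6.38 in WT and 6.56, 6.22 and 6.43 in AMPK KO, from 728 to 1107 reads. The WT samples lay within 0.04 of each other, and the AMPK KO samples lay on both sides of them. This gave a log2 difference of 0.05 (standard error 0.16, 95% interval −0.29 to 0.39, limma adjusted p = 0.904), and it was −0.02 with values scaled to the reads outside Rn45s.

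Strada encodes STRADα, the pseudokinase that binds and activates LKB1. It had the fewest reads of the tested genes, 71 to 135, with log2 values of 3.43, 3.28 and 3.17 in WT and 3.40, 3.76 and 3.22 in AMPK KO. AMPK KO sample 2 was the highest, and the other AMPK KO samples fell between the WT samples. For Strada the log2 difference was 0.17 (standard error 0.31, 95% interval −0.49 to 0.82, limma adjusted p = 0.800).

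The paralogues of the LKB1 partners were measured beside them. Cab39l, which encodes MO25β, had a log2 difference of 0.23 (standard error 0.29, limma adjusted p = 0.701) and made up 15.4% ± 3.51 of the MO25 reads in WT and 17.3% ± 4.17 in AMPK KO (SD, n = 3, exact permutation p = 0.6). Its log2 difference came to 0.02 when WT sample 3 was removed and to 0.44 when AMPK KO sample 3 was. Cab39l shares its 3′ end with Cdadc1 on the opposite strand, so its reads are uncertain without strand. Stradb, which encodes STRADβ, had log2 values of 3.63, 3.22 and 1.65 in WT and 3.09, 3.31 and 3.29 in AMPK KO, with 19 reads in WT sample 3 and 83 to 105 in the others. WT sample 3 stood apart below the others. The Stradb log2 difference was 0.40 (standard error 0.45, limma adjusted p = 0.656), and it turned to −0.20 without WT sample 3. Its share of the STRAD reads was 41.3% ± 17.6 in WT and 45.6% ± 5.02 in AMPK KO (SD, n = 3, exact permutation p = 0.9).

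**Figure D3:**
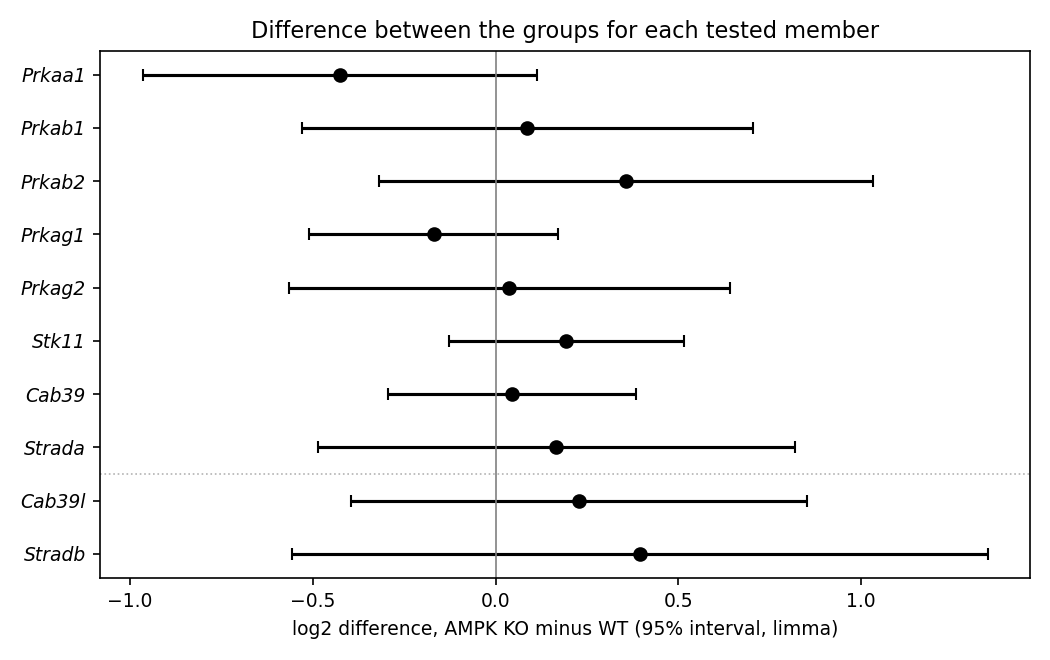
log2 difference, AMPK KO minus WT, of the 8 tested genes and of the paralogues Cab39l and Stradb below the dotted line. Points are limma estimates and bars are 95% intervals, each of which includes 0.

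Summed over its genes, the α class had 29.6 ± 6.60 normalized reads in WT and 21.9 ± 5.27 in AMPK KO, a ratio of 0.740 (SD, n = 3, exact permutation p = 0.3). The β class had 29.7 ± 4.20 and 35.04 ± 1.98 (ratio 1.18, exact permutation p = 0.3). The γ class had 205 ± 23.6 and 185 ± 28.6 (ratio 0.904, exact permutation p = 0.4). With 3 samples against 3, the exact permutation test of a sum could not go below p = 0.1, and the groups overlapped in each class. Each difference kept its sign with any 1 sample left out, but single libraries moved the α and γ differences by over 1.5 times. The α difference of −7.72 came to −4.09 when WT sample 2 was removed and to −4.69 when AMPK KO sample 1 was. The γ difference of −19.7 shrank to −6.82 when WT sample 1 was removed and to −9.41 for AMPK KO sample 1, and it grew to −30.0 for WT sample 2 and −36.0 for AMPK KO sample 2. The β difference of 5.39 ran from 4.12 to 7.81.

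Between genes, the order of the levels depended on the scale. In normalized reads averaged over the 6 samples, with no division by length, Stk11 came first at 193 and Prkag1 followed at 181. Their ranges over the samples overlapped (166 to 242 and 153 to 215). Cab39 was at 82.5, Prkaa1 at 25.8, Prkab2 at 17.5, Prkab1 at 14.8, Prkag2 at 14.1 and Strada at 9.49. Per kilobase of exon, which does not suit reads taken only from 3′ ends, Prkag1 was at 83.2 and Stk11 at 42.2, and the order of Prkab1 (4.84) and Prkab2 (3.44) was also the other way round. Cab39 was at 11.7 on that scale, Prkaa1 at 5.54, Prkag2 at 2.18 and Strada at 1.70. On both scales Prkaa1, Prkab1 and Prkab2 overlapped in their ranges, Prkag3 and Prkaa2 came last, and Prkag1 and Stk11 were above the other 8 genes. Overlapping genes on the opposite strand at the 3′ end (Gm14508 at Prkab1, Gm17651 at Prkab2, B130046B21Rik at Prkag1, Cbarp at Stk11), and Ccdc47 on the same strand at Strada, make the levels of these genes uncertain where reads were not separated.

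Prkaa1 and Prkab2 had the lowest and the highest difference of the 8 tested genes, and both kept their sign under all 15 alternatives. Alternatives that change the filter or the spread estimate, or add a block by sample number, leave the difference unchanged and cannot turn its sign. For Prkaa1 the log2 difference ran from −0.56 to −0.22 and its adjusted p in limma from 0.206 to 0.759. For Prkab2 it ran from 0.09 to 0.63, with an adjusted p from 0.246 to 0.899. Stk11, Prkag1 and Strada kept their sign as well, but single libraries moved them by over 1.5 times. Stk11 came to 0.08 without AMPK KO sample 2, and Strada ran from 0.02 without that sample to 0.29 without AMPK KO sample 3. Removing WT sample 1 took Prkag1 to −0.08, removing AMPK KO sample 1 or 3 took it to −0.10, and removing AMPK KO sample 2 took it to −0.31. In contrast, Prkab1, Prkag2 and Cab39 changed sign in at least 1 alternative.

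**Figure D4:**
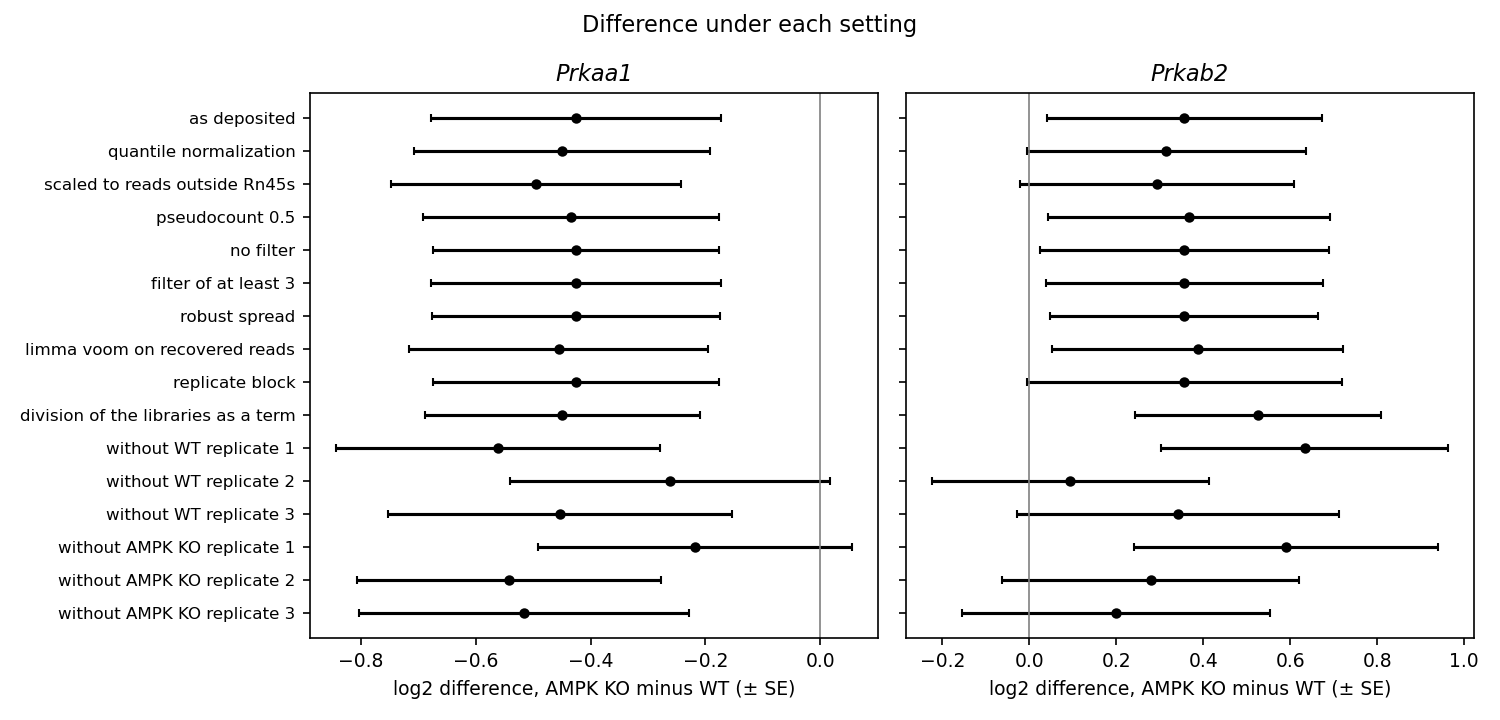
log2 difference, AMPK KO minus WT, of Prkaa1 and Prkab2 under each processing alternative (rows), with the standard error as a bar. Prkaa1 stays between −0.56 and −0.22 and Prkab2 between 0.09 and 0.63, and both move most when single libraries are left out.

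The genes whose values over the 6 samples were most like those of Prkaa1 were Dr1 (Pearson r = 0.99), Mphosph10 (r = 0.97) and Tbcc (r = 0.96), among 6142 genes with a mean log2 of at least 4. These correlations describe 6 samples of 2 genotypes that also differed in library depth, so they include the difference between the groups. Among so many genes some correlations will be high. None of the 3 genes passed the threshold between the groups.

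The rest of the LKB1-AMPK pathway was taken from a list by role. Of its 55 genes, 46 were tested, and the AMPK KO mean was the higher in 31, compared with 5777 of all 11279 tested genes. The median log2 difference was 0.14, compared with 0.02 over all tested genes. Of the 46 genes, 1 was higher and 0 were lower past the threshold, against 5.65% of all genes in either direction, and 4 had an unadjusted p under 0.05, against 21.3%. In 5 of the 46, WT and AMPK KO values stayed apart, against 25.6%.

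The gene past the threshold was Sik3, a salt-inducible kinase of the AMPK-related family that LKB1 activates. Its log2 values were 4.21, 4.0 and 4.50 in WT and 5.13, 5.12 and 5.35 in AMPK KO, from 150 to 474 reads. All AMPK KO samples were above all WT samples. The log2 difference was 0.97 (standard error 0.23, limma adjusted p = 0.0236). The call was lost without any 1 library other than AMPK KO sample 2 (adjusted p 0.0512 to 0.0992), and the difference then ran from 0.85 to 1.10.

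Among the other AMPK-related kinases, Nuak2 had 2.73, 3.02 and 2.81 in WT and 3.43, 4.0 and 4.15 in AMPK KO on the log2 scale (log2 difference 1.01, standard error 0.32, limma adjusted p = 0.0773). Its groups did not overlap, and it was singled out after its values were seen, as were the genes named next. The other genes with an unadjusted p under 0.05 were Brsk2, a kinase of the same family (log2 difference 1.13), and Ampd1, an AMP deaminase (−1.32). Brsk2 had only 6 to 72 reads and Ampd1 only 8 to 80, and the groups overlapped for both. Without overlap there were also Snrk (−0.37), the phosphatase subunit Ppp2ca (−0.13) and Pfkfb3, which makes an activator of glycolysis (0.43). Apart from Sik3 none of these passed the adjusted threshold.

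The upstream kinase Camkk2, the route from calcium to AMPK, had 3.96, 4.41 and 3.87 in WT and 4.45, 4.22 and 4.52 in AMPK KO (log2 difference 0.32, standard error 0.26, limma adjusted p = 0.510). AMPK KO sample 2 lay below WT sample 2. Of the 17 tested AMPK substrates, 11 had a higher mean in AMPK KO and 0 passed the threshold, with log2 differences from −0.80 to 0.77. The lowest was Foxo3, with 18, 17 and 13 reads in WT and 2, 0 and 26 in AMPK KO. The highest was Txnip, whose log2 values spread over 3.48 across the libraries. The groups overlapped for both. Of the 4 tested phosphatases and the 6 enzymes of adenine nucleotides, 0 passed it. The folliculin complex (Flcn, Fnip1 and Fnip2), which acts with AMPK at the lysosome, had log2 differences of 0.74, 0.01 and 0.84, and none passed it. Fnip2 had 41, 36 and 2 reads in WT and 54, 47 and 58 in AMPK KO. Flcn had 103, 426 and 100 reads in WT and 412, 166 and 597 in AMPK KO. The groups overlapped for both genes.

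**Figure D5:**
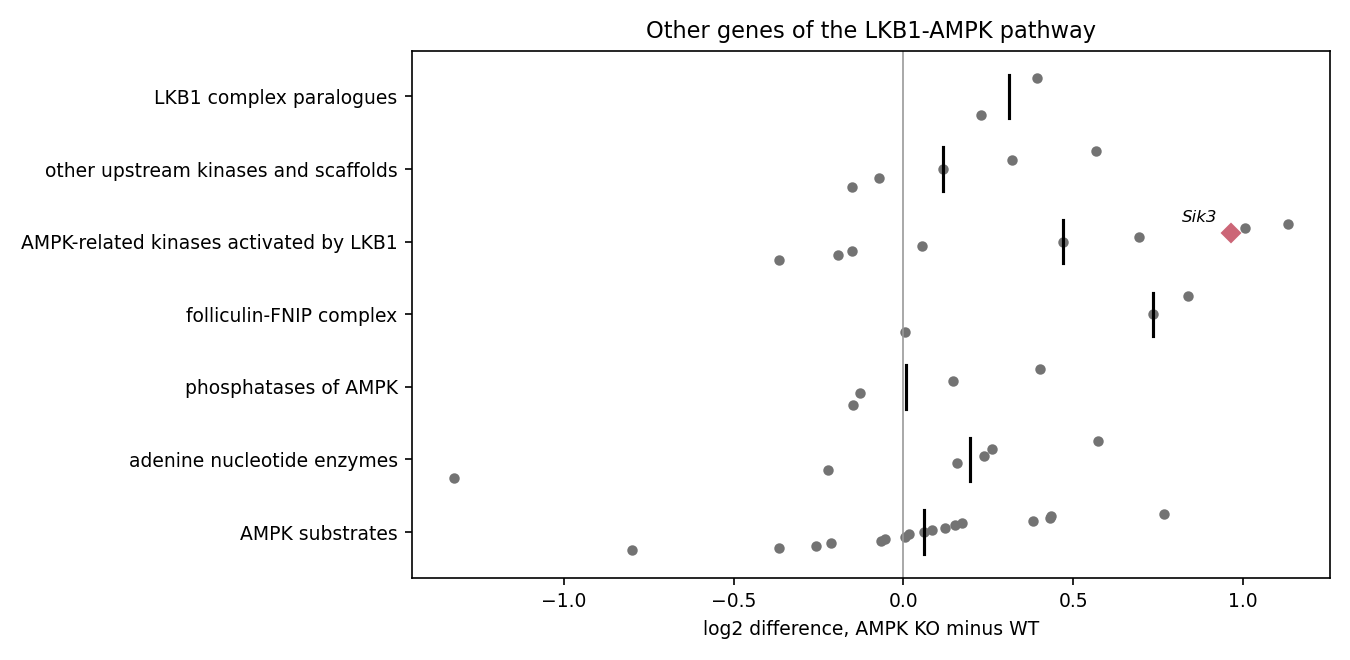
log2 difference, AMPK KO minus WT, of the 46 tested genes of the LKB1-AMPK pathway outside the 10 genes, by role. Each dot is a gene, black bars are medians and the diamond is Sik3, which alone had an adjusted p under 0.05.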

How the data were processed

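The authors normalized reads by TMM and CPM and deposited log2 of the value plus 1, listed by gene symbol. The submitters' processing notes name mm10, Bowtie2 and bedtools. The counting, the annotation and the use of strand are not given in the sources used here. Reads were recovered from the steps of the values, of which 100% (up to 100 reads) were whole to within 0.1 read.

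Deposited log2 values with a mean of at least 1 were fitted with limma 3.58.1 (lmFit, eBayes with trend) in R 4.3.3, with genotype as the only term and Benjamini-Hochberg adjustment over 11279 genes. All tests were two-sided, and the fit was tested on simulated data. Shares and sums used linear values (Python 3.11.15) with exact permutation tests. Exact binomial intervals (95%) and the 3-read floor cover counting error only. Alternatives were 2 other scalings, a pseudocount of 0.5, other filters (none, at least 3), robust spread, voom on recovered reads, a replicate block, leaving out each sample and, added after seeing the data, a term that splits WT samples 1 and 3 and AMPK KO sample 2 from the rest, by the first principal component of deviations from the group means. The labels name no batch. The members, the lists and the rule for named genes (members, paralogues, neighbours, pathway genes past the threshold, genes most like Prkaa1) were chosen with earlier results of these data known.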

Additional observations from a re-analysis of the deposited data

How the results depend on the processing

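None of the 8 tested genes passed the threshold in any of 120 fits, 15 for each gene, and 111 of these kept the sign. The other filters, robust spread and the replicate block left the difference itself unchanged. Those fits could only change the p value, so their signs are no test. The sign of Prkab1 turned with a term for the division of the libraries (−0.054) and in the range without single samples (−0.14 to 0.23). For Prkag2 it turned with quantile normalization (−0.017), with scaling to reads outside Rn45s (−0.027) and without single samples (−0.17 to 0.17). For Cab39 it turned with scaling to reads outside Rn45s (−0.023), with the division (−0.0005) and without single samples (−0.034 to 0.14). Stradb ran from −0.20 to 0.79 without single samples. Without single samples the difference in share, in percentage points, ran from −13.1 to 2.39 for Prkab1, −0.32 to 2.36 for Prkag2, −0.080 to 4.12 for Cab39l and −5.71 to 10.7 for Stradb. The Stradb difference was −0.055 with reads pooled over the group.

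The number of genes past the threshold was 637, with 287 higher and 350 lower. It was 308 with no filter, 1428 with the division as a term, and 127 to 1246 without single samples (leaving out WT sample 1 gave 127, WT sample 3 gave 140, AMPK KO sample 1 gave 172 and AMPK KO sample 2 gave 1246). Scaled to reads outside Rn45s, 235 were higher and 487 lower. Of the pathway genes, 3 were past it with the division as a term, and 0 to 3 without single samples (Sik3, Txnip and Ulk1 without AMPK KO sample 2). The division was added after seeing the data, and its p values are too small, since the libraries it is tested on also defined it. Samples with the same number did not deviate together (correlations −0.23, −0.53 and −0.31), and no pairing is stated. The division put samples of the same number on opposite sides, so these correlations cannot decide whether the numbers pair them. With the replicate block, 102 genes and 0 pathway genes passed. The Sik3 adjusted p in limma was then 0.105. The cause of these shifts was not tested.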
